A study of Mus musculus with 21 samples.

Results

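The 8 Hes and Hey Notch target genes of the mouse, Hes1, Hes5, Hes6, Hes7, Hey1, Hey2, Heyl and Nrarp, were followed by RNA-seq through the differentiation of pluripotent stem cells toward hematopoietic stem cell-like cells. They were taken by name, and all 8 were listed once in each expression table, which held values for 19321 genes in day 5 total cells and for 27968 genes in sorted cells. The data were 21 libraries in 7 groups of 3 replicates. Day 5 total cells came from 129/ola mouse embryonic stem cells, kept on mouse embryonic fibroblast feeders before differentiation, that were induced in 3D and whose colonies were then grown on OP9 cells (3D+OP9) or on 0.1% gelatin without them (3D+0.1% gelatin). OP9 is a mouse bone marrow stromal line, treated here with mitomycin to stop its division. The study's methods give SCF, IL-3 and Flt3L for the medium of the OP9 coculture. Sorted cells were undifferentiated mESC of the same 129/ola line, taken by the surface antigen SSEA-1, and the LSKCD201+ and LSKCD201- cells of day 5 of the 3D+OP9 culture (D5-LSKCD201+ and D5-LSKCD201-). LSK stands for cells without lineage markers that carry Sca-1 and c-Kit, and CD201 is the endothelial protein C receptor used to enrich hematopoietic stem cells. The references from C57BL/6 mice were LSKCD201+ cells of the bone marrow of adults aged 6 to 8 weeks (BM-LSKCD201+) and of the fetal liver at embryonic day 12.5 (FL-LSKCD201+). The labels name no genetic change and no Notch inhibitor in these groups. The labels give 129/ola for every group made in culture, while the study's methods name embryonic stem cells of both 129/ola and C57BL/6 mice without saying which were sequenced. By the labels the strain differs between the groups made in culture and the groups from mice, so strain and source cannot be told apart.

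Notch is a receptor that is cut when a Delta or Jagged ligand on a neighbouring cell binds it. The freed intracellular part enters the nucleus, binds the DNA-binding protein RBPJ, and turns on target genes. Among the targets known best are the Hes and Hey genes, which encode basic helix-loop-helix repressors that recruit Groucho and TLE corepressors, and Nrarp, which encodes a small ankyrin-repeat protein that binds the Notch complex and dampens it. In the embryo, Hey1 and Hey2 are known for arterial endothelium, Hes1 for the emergence of hematopoietic stem cells in the aorta, and Hes7 and Nrarp for the segmentation of the presomitic mesoderm. Hes6 differs from the others in that its protein is known to oppose Hes1 rather than to act as a direct Notch effector. The question put to the sorted cells was how the Notch pathway stood in D5-LSKCD201+ cells against their source and against hematopoietic stem cells from mice.

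Expression is given as FPKM, reads scaled by transcript length and by the mapped reads of the library, so levels can be compared between genes. Library sums were 483263 to 508307 FPKM in day 5 total cells and 508622 to 620332 FPKM in sorted cells, and sequencing depth is unknown because no counts were used. Each pair of groups was compared with limma on log2(FPKM + 1) over genes whose mean reached 0.5 FPKM. A gene under that level in either group could pass through the other alone, and its call is then a description. A gene was called higher or lower when its Benjamini-Hochberg adjusted p was under 0.05 and its log2 fold change was 1 or more in size. Fold changes on this scale understate the change of weakly expressed genes. No exact permutation test of 3 libraries against 3 can give a two-sided p under 0.1. The labels do not say whether the replicates came from separate cultures or animals, while the paper speaks of biological replicates and independent experiments. For replicates that were not separate, p-values measure only the spread between these samples. In a bulk sample, fewer cells of a type and less RNA per cell cannot be told apart.

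Marker genes were read first, because several of them moved with the groups. The 3 surface markers of the sort (Kit, Ly6a and Procr) summed to between 162 and 171 FPKM in D5-LSKCD201+ cells, against 58.5 to 69.1 FPKM in D5-LSKCD201- cells. All 8 endothelial markers were called higher in D5-LSKCD201+ than in D5-LSKCD201- cells, and their sum was 1784 to 1806 FPKM against 113 to 118 FPKM. Ptprc, the pan-leukocyte antigen CD45, had a mean of 0.409 ± 0.167 FPKM (SD, n = 3) in D5-LSKCD201+ cells, 43.5 ± 7.54 in FL-LSKCD201+ and 66.8 ± 4.21 in BM-LSKCD201+. All 8 hematopoietic markers together summed to 26.5 to 31.8 FPKM in D5-LSKCD201- cells and 80.8 to 82.4 FPKM in D5-LSKCD201+ cells. Of the 7 tested, Spi1, Itga2b and Laptm5 were called higher and Myb and Runx1 lower in D5-LSKCD201+ cells, with a median log2 fold change of -0.0026. The 6 pluripotency markers summed to between 3198 and 3662 FPKM in D5-LSKCD201- cells and to between 20.7 and 28.1 FPKM in D5-LSKCD201+ cells. Some libraries stood apart from the other replicates of their group. FL-LSKCD201+ replicate 1 differed from the others by a root mean square of 0.454 and 0.434 on the log2 scale, against 0.144 between the others, and the erythroid marker sum was 4749 FPKM in it and 10811 and 9935 FPKM in replicates 2 and 3. BM-LSKCD201+ replicate 1 (0.336 and 0.340, against 0.138), D5-LSKCD201- replicate 2 (0.416 and 0.428, against 0.161) and 3D+OP9 replicate 3 (0.419 and 0.430, against 0.168) also stood apart.

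The sequence set used here (RefSeq, GRCm38.p6) held windows upstream of the start for 5 of the 8 genes, not for Hes1, Hey1 or Heyl. The 250 bases before each start were searched on both strands for TGGGAA, the core of the RBPJ site, which was present in 21.6% of 32851 windows of the same length. The core was found in the windows of Hes5, Hey2 and Hes7, and each time within GTGGGAA, which 5.42% of the windows held. The matches are shown because RBPJ is the DNA-binding partner of Notch, each with 12 bases on either side, turned so that the core reads 5′ to 3′, and with the core in capitals.
Hes5, 226 bases before the start (chr4:154960685-154960714, minus strand): atgtccgggctgTGGGAAcgcgctcgccct
Hes5, 82 bases before the start (chr4:154960829-154960858, plus strand): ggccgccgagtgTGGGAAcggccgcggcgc
Hey2, 207 bases before the start (chr10:30842973-30843002, plus strand): ttggcagaggcgTGGGAAtgccaccgcgca
Hes7, 180 bases before the start (chr11:69120261-69120290, minus strand): tagccccaaatgTGGGAAgtgaggggagga
The 2 matches of Hes5 lay on opposite strands. Distances are from the RefSeq starts. The deposited table begins Hes5 at 154960770 and Hes7 at 69120054, before those starts, so the match 82 bases before the Hes5 start and the Hes7 match lie within the genes as that table bounds them. No TGGGAA was in the window of Nrarp or in the 2 windows of Hes6, which says only that these letters are not in these windows. The Nrarp window held 1 CACGTG, the E-box letters that Hey proteins are known to bind, which 6.02% of windows held. The window is printed, with the CACGTG in capitals, because Nrarp held the largest mean share of the 8 genes' summed expression in D5-LSKCD201+ cells. In replicate 3 of that group Hes1 held more (38.6% against 37.3%).
Nrarp, 250 bases before the start (chr2:25180508-25180757, plus strand): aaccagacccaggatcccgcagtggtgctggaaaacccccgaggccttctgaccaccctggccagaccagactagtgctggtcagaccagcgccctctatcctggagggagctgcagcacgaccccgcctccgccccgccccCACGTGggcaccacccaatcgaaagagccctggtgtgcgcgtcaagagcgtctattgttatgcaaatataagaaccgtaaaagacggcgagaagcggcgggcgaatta

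Across the 5 groups of sorted cells the genes did not follow one pattern. Nrarp, Hey1 and Hey2 were highest in D5-LSKCD201+ cells, whereas Hes1 and Hes5 were highest in BM-LSKCD201+ cells and Hes6 was lowest in D5-LSKCD201+ cells. On the log2(FPKM + 1) scale the distance between the highest and the lowest group mean was 4.71 for Nrarp, 4.05 for Hey1, 4.01 for Hes1, 3.07 for Hes5 and 1.38 for Hes6. It was 0.38 for Hes7, which like Heyl stayed under 1 FPKM in each of the 15 libraries. None is given for Hey2 and Heyl, whose lowest group was listed at 0. The order of these distances depends on the pseudocount, since with 0.1 in place of 1 Hes5 in D5-LSKCD201+ cells was at -5.92 against BM-LSKCD201+ and Nrarp at 5.10 against mESC.

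**Figure D1:**
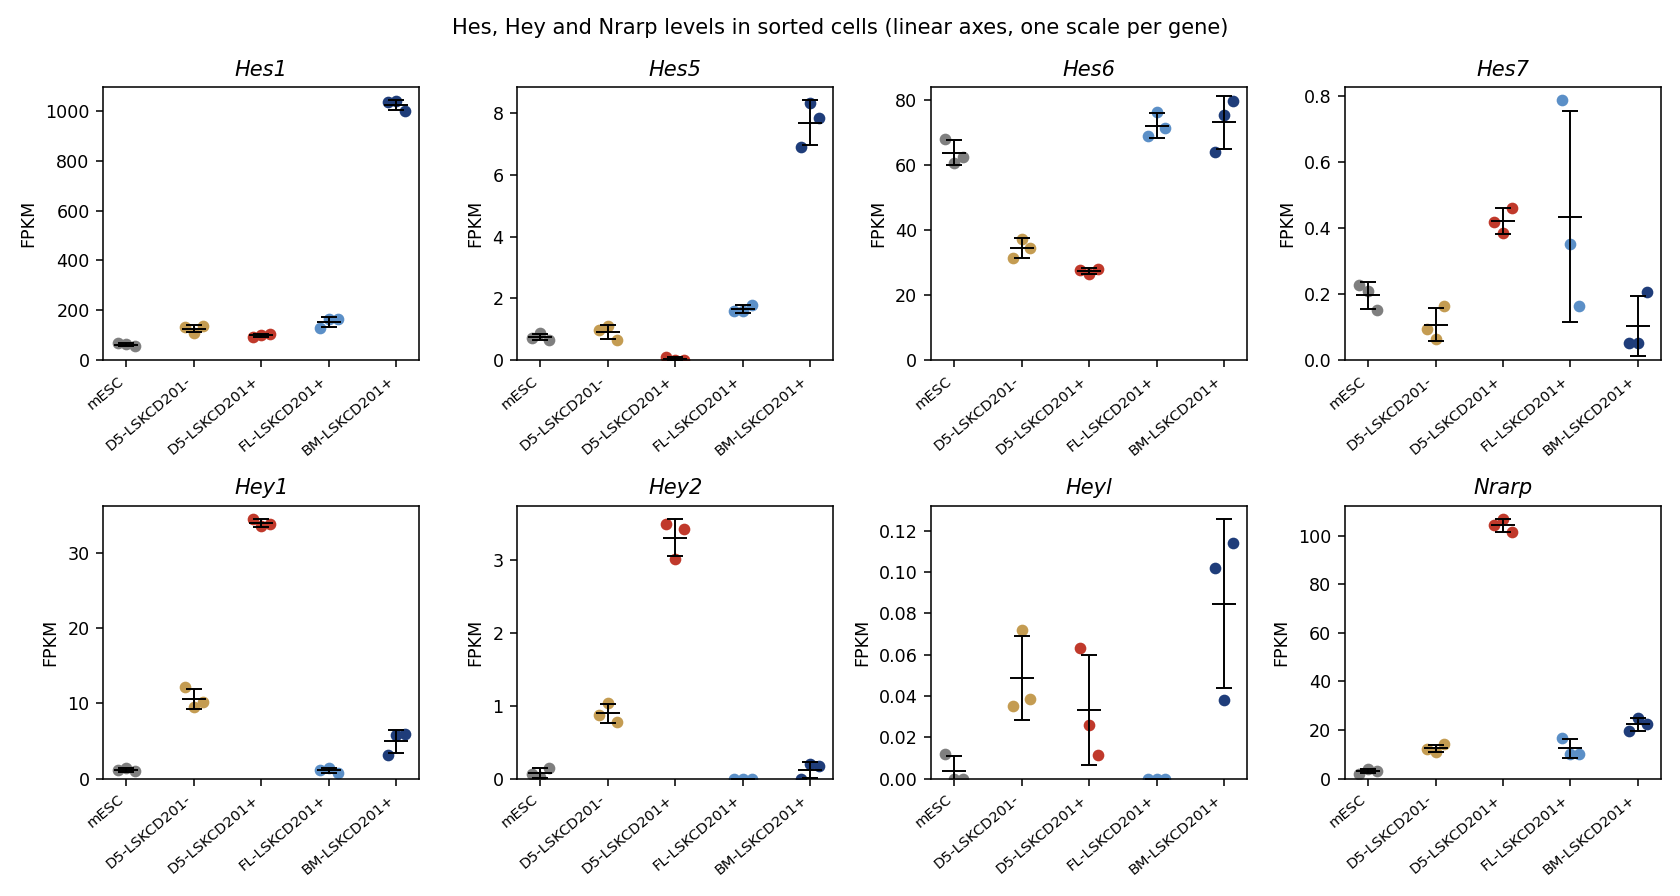
FPKM (y axis, linear, one scale per gene) of the 8 genes in mESC, D5-LSKCD201-, D5-LSKCD201+, FL-LSKCD201+ and BM-LSKCD201+ cells (x axis). Points are the 3 libraries of a group, and bars are the mean and SD. Nrarp reached 104 FPKM and Hey1 34.0 FPKM in D5-LSKCD201+ cells, and Hes1 reached 1025 FPKM in BM-LSKCD201+ cells.

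Hes1 encodes the most widely used Notch effector and lies on chromosome 16 (chr16:30064384-30067796, plus strand, GRCm38) in 4 exons. In BM-LSKCD201+ cells it was at 1034, 1039 and 1001 FPKM in replicates 1, 2 and 3, which placed it at rank 62, 73 and 75 of 27968 genes. FL-LSKCD201+ libraries had 129, 165 and 164 FPKM, and D5-LSKCD201- libraries 132, 109 and 139 FPKM. D5-LSKCD201+ libraries had 93.1, 102 and 105 FPKM, and mESC 67.9, 63.1 and 56.8 FPKM. Every bone marrow library was thus several-fold above every other library, and the only neighbours in the order of groups whose libraries overlapped were FL-LSKCD201+ and D5-LSKCD201-. Against BM-LSKCD201+, the log2 fold change of Hes1 was -3.35 ± 0.06 in D5-LSKCD201+ cells (± SE, adjusted p = 4.8e-09) and -2.75 ± 0.13 in FL-LSKCD201+ cells (adjusted p = 6.1e-06). The difference between D5-LSKCD201+ and D5-LSKCD201- cells was -0.33 ± 0.10 (adjusted p = 0.0201), and that between D5-LSKCD201+ and FL-LSKCD201+ cells -0.60 ± 0.12 (adjusted p = 0.00308). Both passed the adjusted p but not the fold change, as did the gain over mESC, 0.67 ± 0.07 (adjusted p = 1.5e-05). In D5-LSKCD201- cells Hes1 was above mESC by 1.0 ± 0.11 (adjusted p = 0.000199), which sits on the fold threshold. That call was lost without D5-LSKCD201- replicate 1 (0.97) or 3 (0.93), without mESC replicate 3 (0.93), or with quantile normalization (0.99).

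Hes5 is a Notch effector known best from neural progenitors, and lies on chromosome 4 in 3 exons (chr4:154960770-154962371, plus strand). BM-LSKCD201+ cells had 6.92, 8.34 and 7.84 FPKM, the highest of the 5 groups. The level was 1.59, 1.58 and 1.79 FPKM in FL-LSKCD201+ cells, 0.971, 1.11 and 0.669 FPKM in D5-LSKCD201- cells and 0.720, 0.865 and 0.657 FPKM in mESC. In D5-LSKCD201+ cells it was 0.112 FPKM in replicate 1 and listed at 0 in replicates 2 and 3. All 3 of these values lay under every library of the other 4 groups. In D5-LSKCD201+ cells the log2 fold change was -3.07 ± 0.10 against BM-LSKCD201+ (adjusted p = 1.0e-07) and -1.35 ± 0.09 against FL-LSKCD201+ (adjusted p = 1.1e-05). Hes5 passed the filter in both comparisons only through the cells from mice, where it is high, so these calls are a description. FL-LSKCD201+ was lower than BM-LSKCD201+ by -1.71 ± 0.12 (adjusted p = 3.2e-05). Against D5-LSKCD201- and mESC the gene fell under the filter and was not tested. A filter at 1 FPKM also removed it from the comparison with FL-LSKCD201+.

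Hes6, whose protein is known to counter Hes1, lies on chromosome 1 (chr1:91411483-91414038, minus strand) in 4 exons. It was detected at 26.3 FPKM or more in every sorted library. The values were 68.1, 60.7 and 62.4 FPKM in mESC, 31.4, 37.3 and 34.5 FPKM in D5-LSKCD201- and 27.8, 26.3 and 27.9 FPKM in D5-LSKCD201+ cells. They were 68.8, 76.2 and 71.3 FPKM in FL-LSKCD201+ and 64.1, 75.3 and 79.7 FPKM in BM-LSKCD201+ cells. Both day 5 groups therefore lay under mESC and under both groups from mice with no overlap, and the groups from mice overlapped each other. In D5-LSKCD201+ cells the log2 fold change was -1.19 ± 0.05 against mESC (adjusted p = 3.7e-08), -1.36 ± 0.07 against FL-LSKCD201+ (adjusted p = 3.7e-06) and -1.38 ± 0.08 against BM-LSKCD201+ (adjusted p = 2.6e-06). The difference from D5-LSKCD201- cells was smaller, -0.32 ± 0.08 (adjusted p = 0.00791), and was not called. FL-LSKCD201+ and BM-LSKCD201+ differed by -0.01 ± 0.11 (adjusted p = 0.919).

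Hes7, the oscillating repressor of the segmentation clock, lies on chromosome 11 (chr11:69120054-69124055, plus strand) in 4 exons. Its highest value in sorted cells was 0.787 FPKM, in FL-LSKCD201+ replicate 1, while replicates 2 and 3 of that group had 0.351 and 0.164 FPKM. D5-LSKCD201+ cells had 0.418, 0.384 and 0.460 FPKM, above every library of mESC (0.152 to 0.228 FPKM) and of D5-LSKCD201- (0.0651 to 0.162 FPKM). BM-LSKCD201+ libraries had 0.0506, 0.0525 and 0.207 FPKM. Hes7 was under the filter in all 6 comparisons of sorted cells, and without the filter it was called in none of them.

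Hey1 is a repressor known for arterial endothelium and lies on chromosome 3 (chr3:8663359-8667256, minus strand) in 5 exons. D5-LSKCD201+ cells had 34.5, 33.6 and 33.8 FPKM. The level was 12.1, 9.48 and 10.2 FPKM in D5-LSKCD201- cells and 3.16, 5.76 and 5.92 FPKM in BM-LSKCD201+ cells. It was near 1 FPKM in the rest, at 1.11, 1.43 and 0.983 FPKM in mESC and 1.11, 1.40 and 0.829 FPKM in FL-LSKCD201+ cells. The lowest D5-LSKCD201+ library was above the highest library of each other group, and the last pair, mESC and FL-LSKCD201+, was the only one of neighbours that overlapped. Compared with D5-LSKCD201- cells, the log2 fold change in D5-LSKCD201+ cells was 1.60 ± 0.09 (adjusted p = 6.1e-06). It was 4.01 ± 0.08 against mESC (adjusted p = 3.3e-10), 4.06 ± 0.11 against FL-LSKCD201+ (adjusted p = 2.2e-07) and 2.59 ± 0.19 against BM-LSKCD201+ (adjusted p = 7.2e-06). Hey1 was also higher in D5-LSKCD201- than in mESC, by 2.41 ± 0.13 (adjusted p = 7.5e-06), and lower in FL-LSKCD201+ than in BM-LSKCD201+, by -1.46 ± 0.22 (adjusted p = 0.00123).

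Hey2, the second arterial member of the family, lies on chromosome 10 (chr10:30832359-30842801, minus strand) in 5 exons and was highest in the same group at a far lower level. D5-LSKCD201+ cells had 3.49, 3.02 and 3.42 FPKM, against 0.879, 1.04 and 0.779 FPKM in D5-LSKCD201- cells. It was at 0.0690, 0.0213 and 0.153 FPKM in mESC, at 0, 0.198 and 0.181 FPKM in BM-LSKCD201+ cells, and listed at 0 in all 3 FL-LSKCD201+ libraries. Every D5-LSKCD201+ value was above every value of the other groups. In D5-LSKCD201+ cells Hey2 was called higher than in D5-LSKCD201- cells (1.18 ± 0.10, adjusted p = 3.7e-05), mESC (1.995 ± 0.09, adjusted p = 3.5e-08) and BM-LSKCD201+ cells (1.94 ± 0.11, adjusted p = 1.5e-06). It was also called higher than in FL-LSKCD201+ cells, and no fold change is given there because that group was listed at 0. Against mESC and both groups from mice Hey2 passed the filter only through D5-LSKCD201+ cells, where it is high, so these calls are a description. Heyl, the third Hey gene, which is known for smooth muscle of vessels, lies on chromosome 4 (chr4:123233556-123249875, plus strand). Its highest value in sorted cells was 0.114 FPKM, in a BM-LSKCD201+ library, and it was listed at 0 in FL-LSKCD201+ cells and in 2 mESC libraries.

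Nrarp, the feedback inhibitor of Notch, is a gene of 1 exon on chromosome 2 (chr2:25180758-25183339, plus strand), directly after the window printed above. D5-LSKCD201+ cells had 104, 107 and 102 FPKM. BM-LSKCD201+ cells had 19.6, 24.9 and 22.6 FPKM, FL-LSKCD201+ cells 16.8, 10.2 and 10.4 FPKM and D5-LSKCD201- cells 12.3, 10.9 and 14.1 FPKM. mESC had 2.13, 3.81 and 3.11 FPKM. The D5-LSKCD201+ libraries lay far above all others and varied little, with a mean of 104 ± 2.69 FPKM (SD, n = 3). FL-LSKCD201+ and D5-LSKCD201- had nearly the same mean and overlapped. The log2 fold change in D5-LSKCD201+ cells was 2.97 ± 0.09 against D5-LSKCD201- (adjusted p = 3.4e-07), 4.73 ± 0.13 against mESC (adjusted p = 2.1e-09), 3.00 ± 0.18 against FL-LSKCD201+ (adjusted p = 8.1e-06) and 2.18 ± 0.08 against BM-LSKCD201+ (adjusted p = 2.4e-07). In D5-LSKCD201- cells it was 1.76 ± 0.17 above mESC (adjusted p = 0.000143). FL-LSKCD201+ was below BM-LSKCD201+ by -0.82 ± 0.20 (adjusted p = 0.00959), which was not called. Without FL-LSKCD201+ replicate 1, the library with the highest Nrarp of its group, this difference was -1.05 (adjusted p = 0.000346) and was called.

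The makeup of the family changed with the cells. Summed over the 8 genes, expression was 1133 ± 18.8 FPKM in BM-LSKCD201+, 269 ± 4.97 in D5-LSKCD201+, 241 ± 20.1 in FL-LSKCD201+, 186 ± 15.4 in D5-LSKCD201- and 132 ± 8.07 in mESC (SD, n = 3 each). Hes1 was 90.4% of that sum in BM-LSKCD201+ cells, 67.9% in D5-LSKCD201- cells and 63.3% in FL-LSKCD201+ cells. In D5-LSKCD201+ cells Nrarp (38.7%) and Hes1 (37.1%) were about level, followed by Hey1 (12.6%) and Hes6 (10.2%). In mESC Hes6 (48.5%) and Hes1 (47.5%) made up nearly the whole sum. Nrarp was 6.68% of it in D5-LSKCD201- cells, 5.30% in FL-LSKCD201+ cells and 2.32% in mESC, and Hey1 was 5.70% in D5-LSKCD201- cells.

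**Figure D2:**
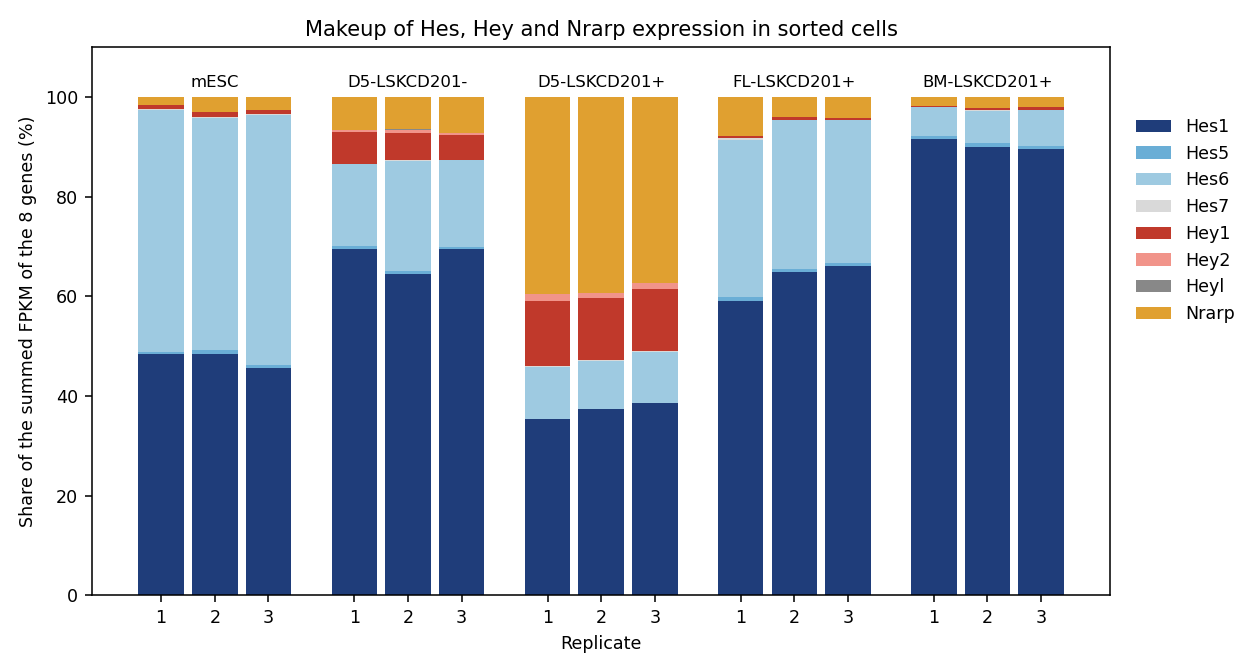
Share of the summed FPKM of the 8 genes (y axis, percent) held by each gene in the 15 libraries of sorted cells, 1 bar per replicate (x axis). Hes1 fills 90.4% of the BM-LSKCD201+ bars on average, and Nrarp 38.7% of the D5-LSKCD201+ bars.

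Between the day 5 groups, 5 of the 8 genes passed the filter, and 3 of them, Nrarp, Hey1 and Hey2, were called higher in D5-LSKCD201+ cells, with none called lower. Of the 13691 genes tested, 24.7% were called, 10.8% as higher and 13.9% as lower. By the adjusted p alone all 5 counted as changed, as did 68.3% of all genes tested. The median log2 fold change of the 5 genes was 1.18, against -0.12 over all genes tested. Hey2 passed the filter mainly through its level in D5-LSKCD201+ cells, so this count and median are a description only. Hes1 and Hes6 were lower in D5-LSKCD201+ cells with no overlap, as were 42.0% of all genes tested, though by less than the fold threshold. As the marker values above show, endothelial markers rose and pluripotency markers fell between the same groups. All 4 tested smooth muscle markers were lower in D5-LSKCD201+ cells, and the 6 of the list summed to between 46.0 and 54.9 FPKM against 174 to 255 FPKM. Of the 6 erythroid markers 4 were lower and 1, Epor, higher, with sums of 39.6 to 61.7 FPKM against 69.5 to 141.8 FPKM. Of the 9 tested stromal markers 2 were higher and 1 lower, with sums of 94.6 to 100.4 FPKM against 39.5 to 73.8 FPKM. The part of these markers in the results was not tested.

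Against mESC, 5 genes passed the filter in D5-LSKCD201+ cells, of which Nrarp, Hey1 and Hey2 were called higher and Hes6 lower, where 37.6% of 13441 genes were called, 19.5% as higher and 18.1% as lower. Hey2, under 0.2 FPKM in every mESC library, passed the filter only through D5-LSKCD201+ cells, so its call is a description. In D5-LSKCD201- cells 5 genes were tested against mESC and 3 were called higher, Hes1, Hey1 and Nrarp, where 14.3% of 13596 genes were called, 10.9% as higher and 3.48% as lower. Hes5 (0.13 ± 0.12, adjusted p = 0.379) and Hes6 (-0.87 ± 0.08, adjusted p = 0.000104) were not called. These comparisons share the mESC libraries, so their values are set side by side. The gain over mESC was 4.01 in D5-LSKCD201+ and 2.41 in D5-LSKCD201- cells for Hey1, and 4.73 and 1.76 for Nrarp, on the log2 scale. Against mESC, 8 of 8 endothelial and 7 of 8 tested stromal markers were called higher and 6 of 6 pluripotency markers lower in D5-LSKCD201+ cells, and 6 of 8 endothelial and 7 of 8 tested stromal markers higher and 2 of 6 pluripotency markers lower in D5-LSKCD201- cells. The mESC sums were 49.6 to 52.7 FPKM for endothelial, 8.24 to 9.72 FPKM for stromal and 5696 to 6216 FPKM for pluripotency markers. The stromal sum was 94.6 to 100.4 FPKM in D5-LSKCD201+ and 39.5 to 73.8 FPKM in D5-LSKCD201- cells. Smooth muscle markers were higher than in mESC for 2 of 3 tested, with 1 lower, in D5-LSKCD201+ cells and for 4 of 4 in D5-LSKCD201- cells, where mESC sums were 7.52 to 15.01 FPKM. Erythroid markers were higher for 3 of 4 tested and for 4 of 6, and none was lower, where mESC sums were 11.8 to 13.6 FPKM. Hematopoietic markers were called higher for 3 of 6 tested, with 1 lower, in D5-LSKCD201+ cells and for 3 of 7 in D5-LSKCD201- cells. Their mESC sums were 19.6 to 20.5 FPKM. Surface markers of the sort were higher for 3 of 3 and for 2 of 3, where mESC sums were 9.92 to 11.4 FPKM. The part of these markers in the gains was not tested.

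Against the cells from mice, D5-LSKCD201+ cells had genes called in both directions. Compared with FL-LSKCD201+, 6 genes were tested, and Hey1, Hey2 and Nrarp were called higher and Hes5 and Hes6 lower in D5-LSKCD201+ cells, where 34.7% of 13627 genes were called, 15.1% as higher and 19.6% as lower. Compared with BM-LSKCD201+, all 6 genes tested were called, with Hey1, Hey2 and Nrarp higher and Hes1, Hes5 and Hes6 lower. There 44.7% of 13775 genes were called, 17.5% as higher and 27.2% as lower. In both comparisons Hey2 passed the filter only through D5-LSKCD201+ cells and Hes5 only through the cells from mice. Hes7 and Heyl were not tested, and Hes1 was not called against FL-LSKCD201+. Endothelial markers summed to between 443 and 486 FPKM in FL-LSKCD201+ and between 318 and 359 FPKM in BM-LSKCD201+ cells, under the 1784 FPKM or more of D5-LSKCD201+ cells. Of the 8 hematopoietic markers 7 were called lower and 1, Itga2b, higher in D5-LSKCD201+ cells in each comparison, and their sums were 80.8 to 82.4 FPKM against 648 to 765 FPKM in FL-LSKCD201+ and 1226 to 1368 FPKM in BM-LSKCD201+. Stromal markers were called higher in D5-LSKCD201+ cells for 6 of 8 tested against FL-LSKCD201+ and 7 of 8 against BM-LSKCD201+, and their sums of 94.6 to 100.4 FPKM stood against 12.4 to 15.4 and 7.06 to 7.89 FPKM. Smooth muscle markers were higher for 2 of 2 tested each time, and their sum was at most 0.452 FPKM in FL-LSKCD201+ and 0.607 FPKM in BM-LSKCD201+ cells. Of the 6 erythroid markers 4 were lower than in FL-LSKCD201+ and none higher, and 3 were higher and 2 lower than in BM-LSKCD201+. The 3 pluripotency markers tested were higher in D5-LSKCD201+ cells each time, with sums over the list of 20.7 to 28.1 FPKM against 4.88 to 9.21 FPKM in FL-LSKCD201+ and 0 to 9.72 FPKM in BM-LSKCD201+ cells. The 3 surface markers of the sort were lower than in BM-LSKCD201+ cells, where they summed to between 425 and 460 FPKM, and none of them was called against FL-LSKCD201+. The part of these lists in the differences was not tested.

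Between the 2 groups from mice, 5 genes were tested, and Hes1, Hes5 and Hey1 were called lower in FL-LSKCD201+ cells with none higher, where 19.1% of 13503 genes were called, 7.78% as higher and 11.3% as lower. The median of the 5 genes was -1.46, against -0.13 over all genes tested. Globins and the other erythroid markers were high in FL-LSKCD201+ cells, with sums of 4749 to 10811 FPKM against 56.8 to 81.7 FPKM in BM-LSKCD201+ cells. Of the 8 hematopoietic markers Laptm5 and Spn were called lower in FL-LSKCD201+ cells, and all 8 had a lower mean there, with sums of 648 to 765 FPKM against 1226 to 1368 FPKM. Of the surface markers of the sort Kit and Ly6a were called lower, and the 3 summed to 146 to 180 FPKM against 425 to 460 FPKM. Of the 8 endothelial markers Tek and Cdh5 were called higher. The part of these markers in the differences was not tested.

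**Figure D3:**
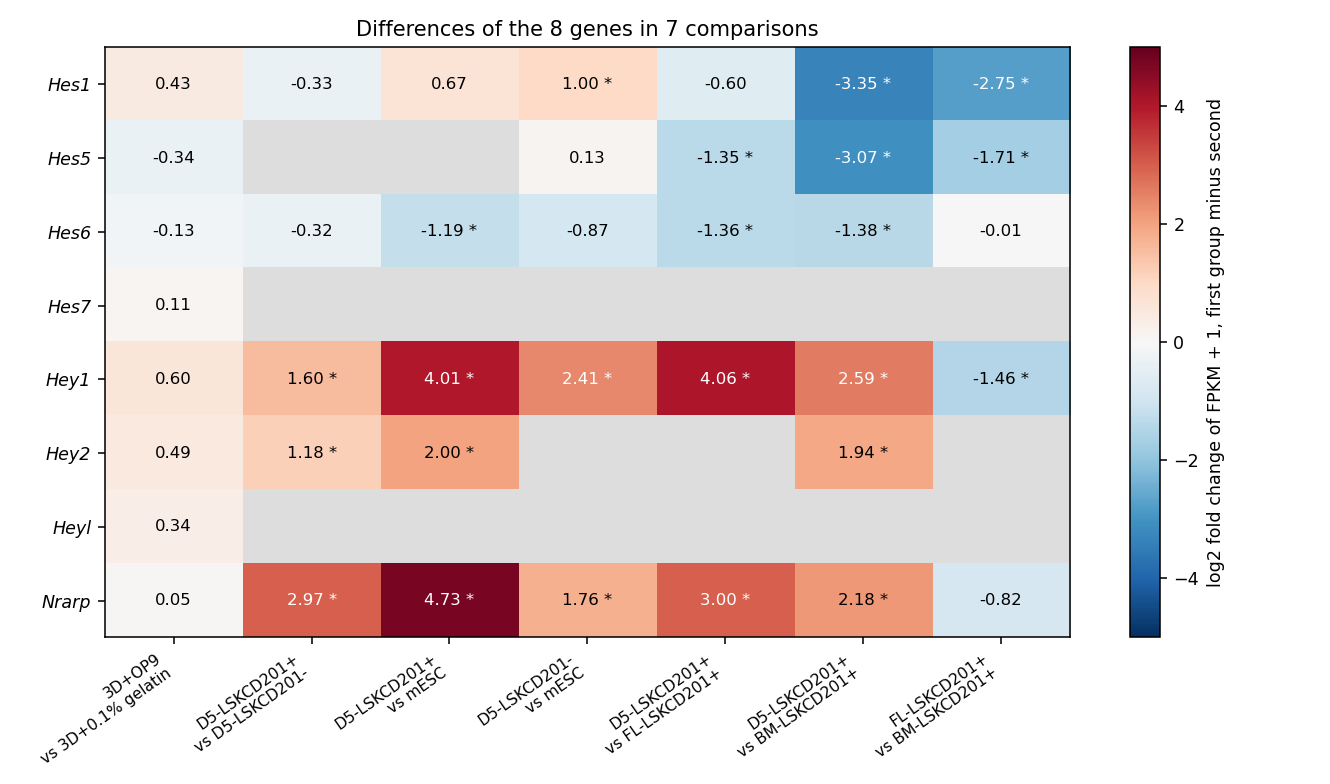
Log2 fold changes of FPKM + 1 (colour and printed values) of the 8 genes (rows) in 7 comparisons (columns), first group minus second. An asterisk marks a called difference, and grey cells were under the filter or, for Hey2 against FL-LSKCD201+, had a group listed at 0. Against the groups from mice, the D5-LSKCD201+ columns are red for Hey1 and Nrarp, and for Hey2 against BM-LSKCD201+, and blue for Hes1, Hes5 and Hes6.

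The other genes of the pathway were read from lists by role. Of 53 genes upstream of the Hes, Hey and Nrarp genes, 50 were tested between the day 5 groups, and 14 were called higher and 4 lower in D5-LSKCD201+ cells, beside 10.8% and 13.9% of all genes, with a median of 0.19. Among the 6 ligands, 4 were higher, led by Dll4, the arterial Delta ligand, at 39.3 ± 0.560 FPKM (SD, n = 3) against 1.14 ± 0.184 (4.24 on the log2 scale). Dlk1, an atypical ligand, followed at 120 ± 5.99 against 10.5 ± 3.81 FPKM (3.45), and Jag2 at 3.53 ± 0.171 against 1.07 ± 0.359 FPKM (1.14). Dll3, a ligand of the presomitic mesoderm that does not activate Notch in neighbouring cells, was lower (-3.56). Of the 4 receptors Notch4 (2.92) and Notch1 (2.30) were higher. Notch1 was at 10.6 ± 0.852 against 1.39 ± 0.567 FPKM, and Notch4 at 19.4 ± 0.681 against 1.79 ± 0.857 FPKM. Receptor processing had 4 of 8 tested genes higher, among them the protease genes Adam10 (2.18) and Furin (1.76) and Aph1a, a subunit of gamma-secretase (1.61), and Mfng, which glycosylates Notch, was higher by 3.59.

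Downstream of the receptors the picture was mixed. The counts that follow stand beside 10.8% of all genes tested called higher and 13.9% called lower. Those of the corepressor genes and of the Groucho and TLE genes are near this background. Rbpj itself was lower in D5-LSKCD201+ cells, at 6.54, 5.66 and 5.74 FPKM against 18.8, 12.4 and 18.2 FPKM in D5-LSKCD201- cells, with no overlap (-1.30 ± 0.16, adjusted p = 0.000279). Kat2b, an acetyltransferase of the activating complex, was also lower (-1.02), and the coactivator gene Maml2 was higher (1.24). Of the 7 corepressor genes at RBPJ only L3mbtl3 was called (1.03), and among genes of ligand and receptor turnover Numb, an inhibitor of Notch, was higher (1.12) and Dtx1 lower (-3.17). None of the 6 tested Groucho and TLE genes, the partners of Hes and Hey proteins, was higher, and Tle6 was lower (-1.75). The other Hes-related and Id genes gave 2 lower genes of 6 tested, Id4 (-1.53) and Bhlhe41 (-1.02). Segmentation and presomitic mesoderm genes, a setting in which Hes7 and Nrarp are used, had 5 of 7 lower, led by Cer1 (-5.72), Dkk1 (-3.56) and Mesp1 (-3.25). Nes was the only gene tested of 10 neural genes (1.295, higher). Arterial genes had 10 of 13 higher with a median of 3.37, led by Gja5 (5.76), Sox18 (4.47) and Gja4 (4.32). Dll3, Dtx1 and Bhlhe41 averaged under 0.5 FPKM in D5-LSKCD201+ cells and Maml2 in D5-LSKCD201- cells, so their calls are a description. The changes of Kat2b, L3mbtl3 and Bhlhe41 lie close to the fold threshold, and no alternative was run for the genes of these lists. The nuclear complex genes, Rbpj among them, summed to 91.1 FPKM in D5-LSKCD201- replicate 2, against 164 and 160 FPKM in replicates 1 and 3. In D5-LSKCD201+ cells they summed to between 112 and 117 FPKM.

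**Figure D4:**
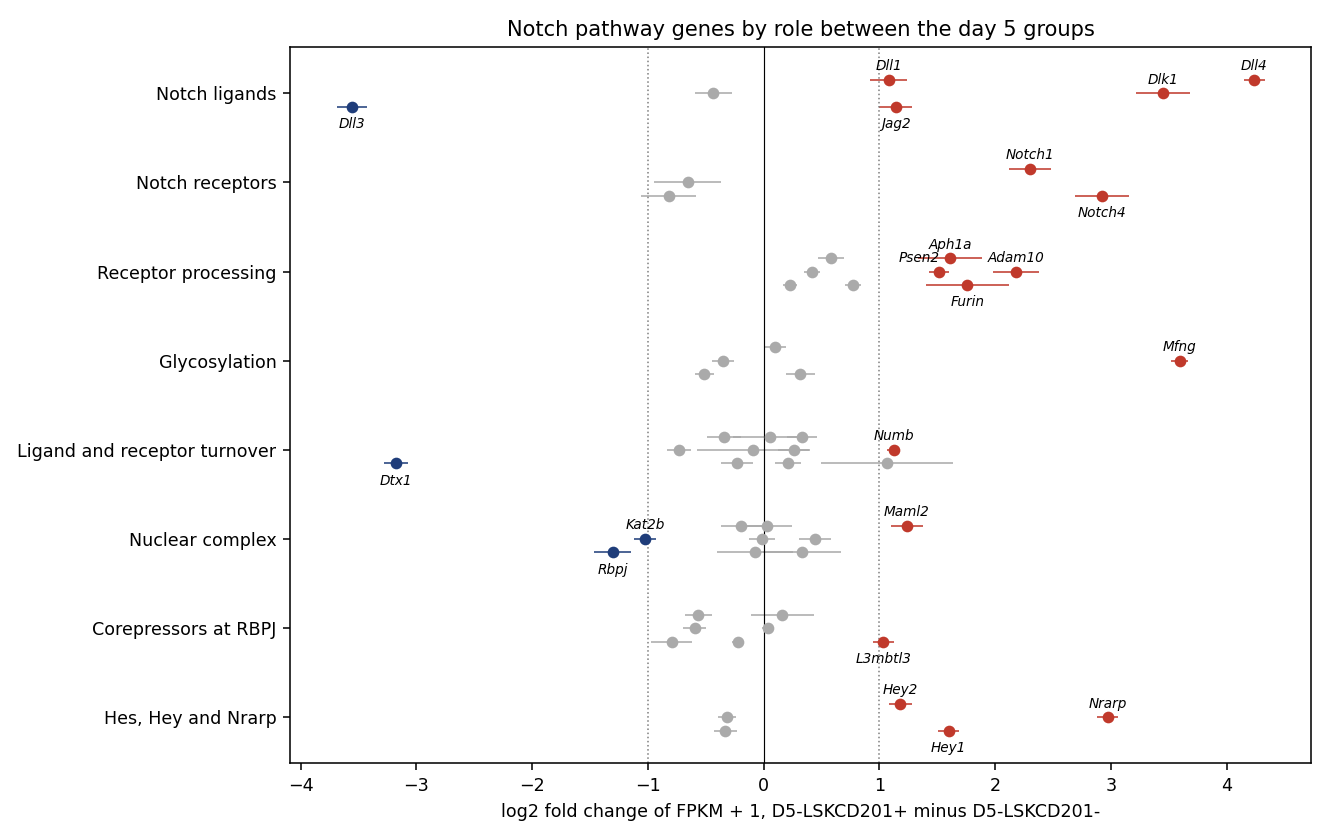
Log2 fold change of FPKM + 1 between D5-LSKCD201+ and D5-LSKCD201- cells (x axis) of the tested Notch pathway genes by role (y axis). Points are genes with their SE, red called higher, blue called lower and grey not called, and dotted lines mark a change of 1. Nrarp (2.97) stands beside the gains of Dll4 (4.24), Mfng (3.59) and Notch4 (2.92), while Rbpj (-1.30) is on the other side.

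The same upstream list was counted in the other comparisons of sorted cells. In D5-LSKCD201+ cells 15 genes were higher and 7 lower than in mESC, 9 higher and 9 lower than in FL-LSKCD201+, and 9 higher and 14 lower than in BM-LSKCD201+, of 50 tested each time. Over all genes tested, 19.5% were higher and 18.1% lower than in mESC, 15.1% and 19.6% than in FL-LSKCD201+, and 17.5% and 27.2% than in BM-LSKCD201+, so the counts against the cells from mice are near the background. D5-LSKCD201- cells had 2 higher and 1 lower than mESC, of 46 tested, and FL-LSKCD201+ cells 2 higher and 4 lower than BM-LSKCD201+, of 46 tested, beside 10.9% and 3.48%, and 7.78% and 11.3%, of all genes. The 6 ligands summed to 169 to 180 FPKM in D5-LSKCD201+, 51.4 to 57.2 FPKM in FL-LSKCD201+ and 8.06 to 9.65 FPKM in BM-LSKCD201+ cells. Dlk1 alone, the atypical ligand, had means of 120, 48.0 and 1.99 FPKM in these groups. The 4 receptors summed to 30.8 to 32.7, 8.64 to 9.53 and 10.4 to 13.2 FPKM in the same order.

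In day 5 total cells the 8 genes were all above the filter, and limma called none between the arms on OP9 and on gelatin, where 2.62% of 12958 genes were called, 2.11% as higher on OP9 and 0.509% as lower. None had an adjusted p under 0.05 in that fit, and 1 gene, Hey2, had an unadjusted limma p under 0.05. The median log2 fold change of the 8 genes was 0.23, against 0.01 over all genes tested. The labels call these libraries total cells taken by flow cytometry and do not say how far OP9 cells were kept out, and they were normalized apart from the other table. The 10 stromal markers summed to between 74.3 and 85.5 FPKM in 3D+OP9 and between 44.8 and 55.8 FPKM in 3D+0.1% gelatin. Other lists differed between the arms as well. Smooth muscle markers summed to between 66.5 and 94.4 FPKM on OP9 and between 202 and 232 FPKM on gelatin, with 2 of 4 tested called lower. Erythroid markers summed to between 211 and 760 FPKM against 4.43 to 21.9 FPKM, with 4 of 6 called higher, and hematopoietic markers to between 24.2 and 32.9 FPKM against 6.65 to 7.87 FPKM, with 4 of 5 tested called higher. Among these Gata1, Spi1, Itga2b and Laptm5 averaged under 0.5 FPKM on gelatin and passed the filter only through 3D+OP9, so their calls are a description. Of the 6 pluripotency markers Esrrb (33.1 against 2.08 FPKM) and Zfp42 (40.1 against 5.50 FPKM) were called higher on OP9, while Nanog (73.3 against 149 FPKM) and Pou5f1 (388 against 624 FPKM) had lower means and were not called. Of the surface markers of the sort Kit and Ly6a were called higher, and the 3 summed to 18.3 to 25.3 FPKM against at most 9.92 FPKM. The part of these markers in the levels of the 8 genes was not tested.

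For Hes1 the 3D+OP9 libraries had 152, 148 and 95.6 FPKM and the 3D+0.1% gelatin libraries 103, 80.2 and 105 FPKM (0.43 ± 0.19, adjusted p = 0.230). Hey1 had 49.7, 51.0 and 26.1 FPKM against 35.9, 26.1 and 19.5 FPKM (0.60 ± 0.30, adjusted p = 0.279). In both genes, and in Heyl, replicates 1 and 2 of 3D+OP9 were above every gelatin library and replicate 3 lay within the range of the gelatin libraries. Without 3D+OP9 replicate 3 the log2 fold change was 0.65 for Hes1 (adjusted p = 0.0147) and 0.91 for Hey1 (adjusted p = 0.0332), so both passed the adjusted p, and neither passed the fold threshold. These were the highest values of all settings tried, which ran from 0.31 for Hes1 and from 0.39 for Hey1. For Hey1 replicate 3 was also the lowest gelatin library, and that library was kept in this fit.

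Hey2 was the only gene of the 8 whose libraries did not overlap, with 3.33, 3.17 and 3.61 FPKM in 3D+OP9 and 3.16, 1.77 and 1.61 FPKM in 3D+0.1% gelatin (0.49 ± 0.19, adjusted p = 0.176). The lowest 3D+OP9 value lay just above the highest gelatin value, and 16.5% of all genes tested were higher in 3D+OP9 with no overlap. Nrarp had 60.3, 62.1 and 13.5 FPKM against 52.6, 40.9 and 21.4 FPKM (0.05 ± 0.59, adjusted p = 0.971). Its 3D+OP9 values spanned more than the difference between the arms. Hes5, with 6.78, 4.79 and 1.44 FPKM against 8.51, 4.66 and 3.16 FPKM, gave -0.34 ± 0.46 (adjusted p = 0.714), and Hes6, with 12.3, 13.5 and 18.2 FPKM against 16.2, 17.8 and 14.1 FPKM, gave -0.13 ± 0.15 (adjusted p = 0.668). Their arms overlapped. Hes7 at 1.71, 1.76 and 0.62 FPKM against 1.82, 0.99 and 0.71 FPKM (0.11 ± 0.26, adjusted p = 0.847) and Heyl at 2.16, 2.31 and 0.76 FPKM against 1.64, 1.22 and 0.55 FPKM (0.34 ± 0.29, adjusted p = 0.542) overlapped as well. Both were above 0.5 FPKM in all 6 libraries of total cells.

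**Figure D5:**
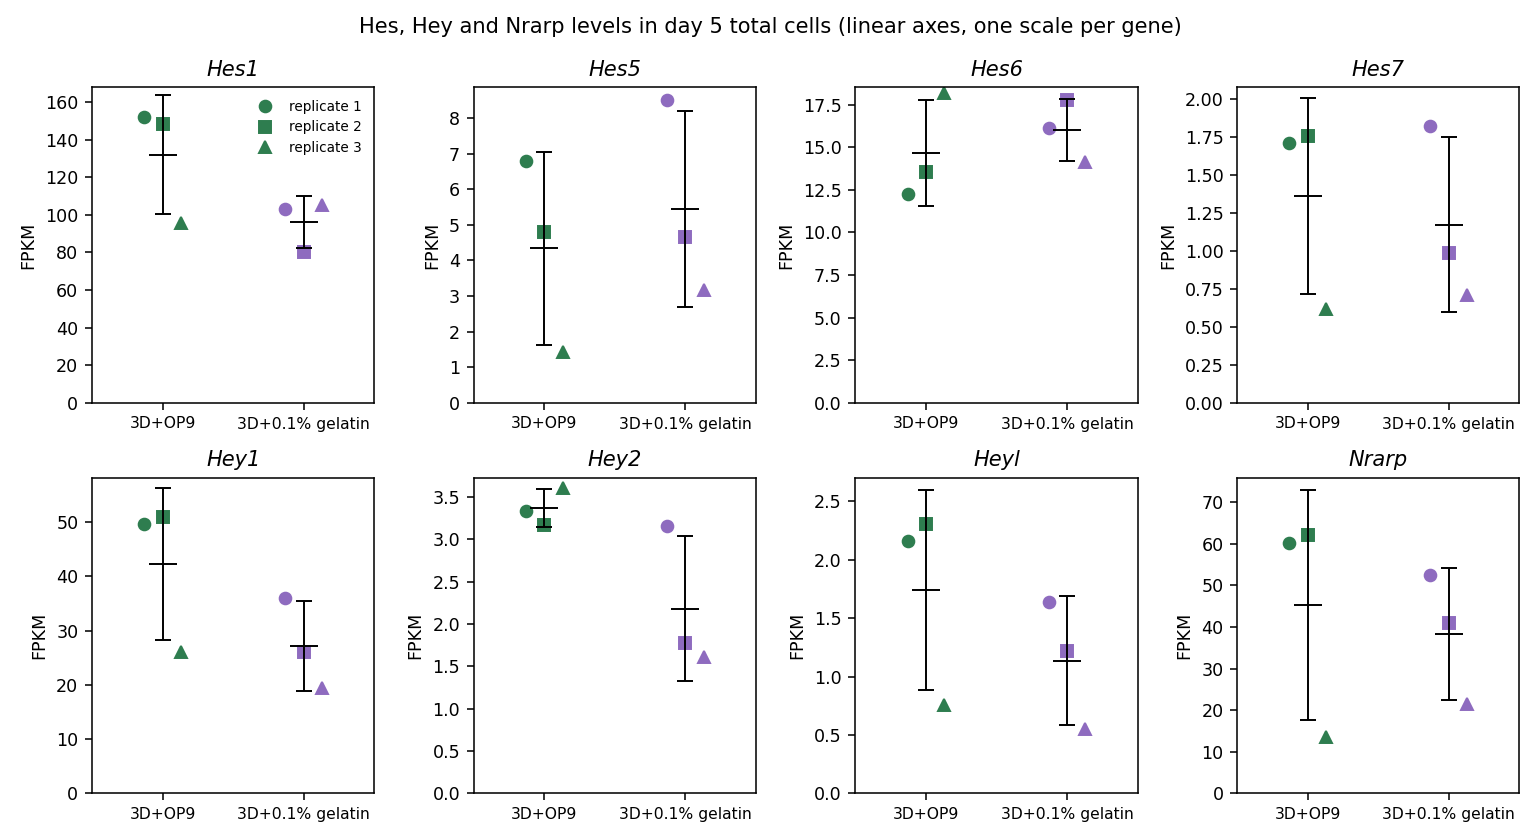
FPKM (y axis, linear, one scale per gene) of the 8 genes in day 5 total cells of the 3D+OP9 and the 3D+0.1% gelatin arm (x axis). Circles, squares and triangles are replicates 1, 2 and 3, and bars are the mean and SD. The triangle is the lowest point of 3D+OP9 in 6 genes, and Nrarp falls from above 60 FPKM in the other replicates to 13.5 FPKM there.

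The spread within the arms was shared by most of the 8 genes. In 3D+OP9, replicate 3 was the lowest library for 6 genes, whereas it was the lowest for 38.1% of all genes tested. In 3D+0.1% gelatin, replicate 3 was the lowest for 7 genes, against 26.9% of all genes, and replicate 1 the highest for 6, against 29.2%. Relative to the mean of the other 3D+OP9 libraries, replicate 3 was lower by a log2 difference of -2.10 for Nrarp, -1.46 for Hes5, -0.92 for Hey1, -0.88 for Heyl, -0.76 for Hes7 and -0.65 for Hes1, and higher by 0.47 for Hes6 and 0.12 for Hey2. Of all genes tested, 0.0540% had a lower difference than Nrarp. The sums of receptors and ligands were also lowest in replicate 3 of each arm. The 4 receptors summed to 54.0, 54.8 and 33.6 FPKM in 3D+OP9 and 50.8, 44.2 and 31.0 FPKM in 3D+0.1% gelatin, and the 6 ligands to 89.1, 97.2 and 66.6 FPKM and 72.1, 59.9 and 45.0 FPKM. Not every gene of these lists did so. In 3D+OP9 Dlk1 (24.5, 31.7 and 38.8 FPKM) and Jag2 (3.67, 3.77 and 7.73 FPKM) were highest in replicate 3, and Notch4 was at 1.36, 1.26 and 1.27 FPKM. Dll1 was at 32.9, 32.8 and 8.87 FPKM. In 3D+OP9 replicate 3 the erythroid markers summed to 760 FPKM, against 211 and 418 FPKM in replicates 1 and 2, and the pluripotency markers to 1114 FPKM, against 620 and 614 FPKM. The endothelial sum was 115, 139 and 117 FPKM in replicates 1, 2 and 3. Segmentation and presomitic mesoderm genes, which include the mesoderm factor gene T, were lowest in replicate 3 of both arms as a sum, with 279, 256 and 72.8 FPKM in 3D+OP9 and 332, 313 and 164 FPKM in 3D+0.1% gelatin. T itself was at 164, 151 and 35.3 FPKM in 3D+OP9 and 196, 226 and 117 FPKM in 3D+0.1% gelatin. The part of these genes in the levels of replicate 3 was not tested.

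Of the 53 upstream genes 51 were tested in total cells, and the ligand genes Dlk1 (1.297) and Dll4 (1.28) were called higher in 3D+OP9 with none lower, a count near the 2.11% and 0.509% of all genes tested. Dll4 was at 2.21 ± 0.676 FPKM against 0.320 ± 0.312 FPKM, and Dlk1 at 31.7 ± 7.15 against 12.3 ± 2.80 FPKM (SD, n = 3). Arterial genes had 4 of 11 tested higher, beside the same 2.11%, led by Sox18 (2.16), Acvrl1 (1.46) and Gja4 (1.40). Dll4 and Acvrl1 (2.76 against 0.357 FPKM) passed the filter only through 3D+OP9, where they are high, so their calls are a description. Of the endothelial markers 7 of 8 were higher. Tie1 and Emcn among them also passed the filter only through 3D+OP9, so their calls are a description as well. Endothelial sums were 115 to 139 FPKM in 3D+OP9 and 23.0 to 39.3 FPKM in 3D+0.1% gelatin. The median log2 fold change was 0.997 for the arterial genes, where that of the 8 Notch targets was 0.23.

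Genes with the most alike pattern were found over the 15 sorted libraries by the smallest root mean square difference of log2(FPKM + 1) profiles, each centred on its own mean, among 14448 genes. For Nrarp they were Rgs3 (0.323) and Cmtm3 (0.333), which reached 54.1 and 218 FPKM in D5-LSKCD201+ cells. Those of Hey1 were Prnp (0.368) and Fam114a1 (0.392), and those of Hey2 Srpx2 (0.137) and Bambi (0.141). For Hes1 they were Zbtb20 (0.212) and Jdp2 (0.294), for Hes5 Osm (0.160) and Ccdc28a (0.170), and for Hes6 Tlk1 (0.145) and Art1 (0.167). No other gene of the 8 was among these pairs, and Hes7 and Heyl were under the filter.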

How the data were processed

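RNA was sequenced from 21 libraries, and the authors deposited FPKM for each gene and library in 2 tables, total cells and sorted cells, which were normalized separately. The study's methods name HISAT2, StringTie and Cuffdiff (2.0.5, 1.3.3 and 1.3.0 in the submitters' processing notes) and GRCm38. The notes also list mm9. Groups came from the sample labels, and no test crossed the tables. In R 4.3.3, limma 3.58.1 with its trend option was run on log2(FPKM + 1) for genes averaging 0.5 FPKM or more, two-sided, with Benjamini-Hochberg adjustment over all genes tested in each of 7 comparisons. The code was tested on simulated data.

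The 8 genes and all lists were chosen with earlier results of these data known. All 8 genes are named, with at most 3 called genes per direction from each list by size of change and the 2 most alike genes for each. The alternatives tried were 0.1 as pseudocount, a filter at 1 FPKM or none, quantile normalization, constant prior variance, a replicate block, one fit over all sorted groups, the adjusted p alone, and leaving out each library. All 3 same-numbered pairs correlated above 0.1 in their deviations in FL-LSKCD201+ and BM-LSKCD201+ alone (0.242, 0.202 and 0.159), with 2 of 3 above it between the arms of the total cells (0.182, 0.0724 and 0.291). Only FL-LSKCD201+ replicate 1 correlated best with the BM-LSKCD201+ replicate of its own number. In the total cells 3D+OP9 replicates 1 and 3 did so with gelatin. The numbers were thus not shown to pair the libraries, and the labels give no pairing. Positions are those of the deposited tables (GRCm38).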

Additional observations from a re-analysis of the deposited data

How the results depend on the processing

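Over 510 values of single genes under an alternative, 494 kept their direction and their side of the threshold. These leave out the adjusted p alone, under which 5 genes rather than 3 counted as changed between D5-LSKCD201+ and D5-LSKCD201- cells, Hes1 and Hes6 being added. It also added Hes1 in D5-LSKCD201+ against mESC and against FL-LSKCD201+, Hes6 in D5-LSKCD201- against mESC and Nrarp between FL-LSKCD201+ and BM-LSKCD201+. Quantile normalization turned Hes5 between D5-LSKCD201- and mESC to -0.13 and moved the median of all genes by over 0.1 in several comparisons, for example from -0.23 to -0.02 between D5-LSKCD201+ and BM-LSKCD201+. Between the arms of the total cells, leaving out 1 library gave -0.045 to 0.36 for Hes7 and -0.31 to 0.75 for Nrarp. It gave -0.69 to 0.14 for Hes5, 0.13 to 0.63 for Heyl and -0.29 to -0.021 for Hes6. Between FL-LSKCD201+ and BM-LSKCD201+ cells the range of Hes6 was -0.10 to 0.051. A pseudocount of 0.1 kept every call of the 8 genes and moved values of weakly expressed ones by over 1.5 times. In D5-LSKCD201+ cells Hey2 went from 1.18 to 1.78 against D5-LSKCD201-, from 1.995 to 4.30 against mESC and from 1.94 to 4.07 against BM-LSKCD201+, and Hes5 from -1.35 to -3.77 against FL-LSKCD201+ and from -3.07 to -5.92 against BM-LSKCD201+. The count of all genes called between these arms was 339, and it was 531 with a pseudocount of 0.1, 209 without 3D+0.1% gelatin replicate 2 and 891 with the adjusted p alone. The adjusted p alone also raised the counts in sorted cells, from 3379 to 9349 between the day 5 groups, from 5056 to 11496 and from 1949 to 7418 for D5-LSKCD201+ and D5-LSKCD201- against mESC, from 4727 to 9823 and from 6159 to 11486 for D5-LSKCD201+ against FL-LSKCD201+ and BM-LSKCD201+, and from 2581 to 7446 between the last 2. With the replicate block 3 of the 8 genes remained called between FL-LSKCD201+ and BM-LSKCD201+, and no call of the 8 genes changed in any comparison. Neither between FL-LSKCD201+ and BM-LSKCD201+ nor between the arms of the total cells were the numbers shown to pair the libraries. Between those arms the block gave Hey1 an adjusted p of 0.0390 at the same log2 fold change of 0.60. With it 379 genes were called in all. Depth is unknown, so the counting error of values near 0, as for Hes5, Hes7, Heyl and Hey2, cannot be stated.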
